A study of Mus musculus with 6 samples.

Results

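Acp4, Sp6, Fam20a, Fam20c, Relt, Cnnm4, Fam83h, Wdr72 and Slc24a4 are mouse counterparts of human genes in which inherited variants disturb enamel formation, other than the genes of the enamel matrix proteins and their proteases. The 9 genes are a list of names, drawn up with earlier results of these data known and with no threshold on their values, and all 9 were found among the 17582 rows of the deposited table, Acp4 under its older symbol Acpt. RNA came from first mandibular molars of C57BL/6 mice at postnatal day 4. The knockout group held 3 libraries of genotype K14-Cre; Wnt10aflox/flox, in which the keratin 14 promoter drives Cre recombinase in epithelium. The control group held 3 libraries with the same floxed Wnt10a alleles and no Cre. No group with Cre alone was analysed here. The labels do not tell whether 1 animal or a pool stands behind each library, and a p-value therefore describes only the spread among these 6 libraries. The comparison asks whether transcripts of the molar differ when Wnt10a, a secreted Wnt ligand, is deleted in epithelium.

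Enamel is made by ameloblasts, epithelial cells that first secrete a protein matrix (the secretory stage) and then remove that matrix while they load the space with calcium and phosphate (the maturation stage). The 9 genes act at different steps of this work. Sp6 is a transcription factor of dental epithelium. Fam20c, its partner Fam20a and Acp4 act on proteins by adding or removing phosphate, or by controlling an enzyme that does so. Fam83h organises keratin filaments and Relt is a cell surface receptor. Wdr72, Slc24a4 and Cnnm4 serve uptake of matrix proteins and transport of ions.

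The libraries carried about the same depth. Estimated reads per library lay between 17980000 and 18600000, from the steps between low FPKM values (fragments mapped to a transcript, divided by its length and by the library's mapped total). Wnt10a, the targeted gene, had 19.39, 19.94 and 18.07 FPKM in the knockouts against 33.61, 36.59 and 31.68 FPKM in the controls. Each knockout library was below every control, and the mean differed by -43.7%. The source of the Wnt10a reads left in the knockouts was not tested. Values are given throughout in the order of replicates 1, 2 and 3. Epithelial markers were abundant: 12 of 12 reached 1 FPKM in every library, as did 10 of 11 odontoblast and dentin markers. Of the 12 epithelial markers 8 were above 0, with a median log2 fold change of 0.017. Of 10 odontoblast and dentin markers tested, 8 were below 0, with a median of -0.123. The groups did not overlap for 1 of the 12, Epcam (log2 difference 0.425), and for 0 of the 10, against 10.1% of all genes tested. A whole molar is a mixture, so for every gene below fewer cells of a type and less RNA per cell cannot be told apart. Libraries also differed in other tissue: the sum of 8 skeletal muscle markers ran from 12.8 to 72.2 FPKM among knockouts and from 7.17 to 68.3 FPKM among controls, and the sum of 8 oral mucosa markers stood at 197.8 FPKM in control 1 against 11.9 to 23.7 FPKM in the other 5 libraries. Knockout and control sums overlapped for blood (1690 to 2403 and 1533 to 3017), vessel (59.3 to 71.2 and 61.7 to 66.3) and nerve markers (79.8 to 102 and 77.0 to 82.9). Of 5 nerve markers tested 3 were above 0 and 2 below. For 1 of the 5, Uchl1, the groups did not overlap, at 35.1 ± 3.35 and 22.8 ± 1.33 FPKM (log2 difference 0.6, adjusted p by limma 0.0735). Osteoclast markers summed to 56.7 to 74.8 FPKM in the knockouts and to 80.4 to 82.0 FPKM in the controls, with no overlap. The sum of 6 bone markers overlapped (491 to 511 and 444 to 530 FPKM) but was mostly Bglap2, an osteocalcin gene, and the other 5 summed to 97.5 to 117.5 FPKM in the knockouts and 137.7 to 149.5 FPKM in the controls, with no overlap. Of the 6 bone markers 5 were below 0, with a median log2 fold change of -0.20. Bglap2 went the other way, at 395 ± 9.18 FPKM in the knockouts and 338 ± 47.8 FPKM in the controls (log2 difference 0.235). Across all these marker lists 0 tested genes passed the limma test in the fit reported. Without knockout 3 Mmp9, Spp1 and Uchl1 passed, and Uchl1 also did with a filter at 5 FPKM.

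The 9 genes spanned a 608-fold range of level per transcript length, and their order was almost the same in every library. Acp4 was the highest, at a mean of 562 FPKM over the 6 libraries, followed by Sp6 at 302, Fam20a at 127, Relt at 83.5, Fam20c at 70.7, Cnnm4 at 13.9 and Fam83h at 8.62 FPKM. Wdr72 at 1.16 and Slc24a4 at 0.923 FPKM came last. For each pair of neighbours down to Fam83h and Wdr72 the lowest library of the higher gene lay above the highest library of the lower gene. The nearest of these pairs was Relt, never below 77.45 FPKM, and Fam20c, never above 74.67 FPKM. Wdr72 and Slc24a4 overlapped and cannot be ordered.

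**Figure D1:**
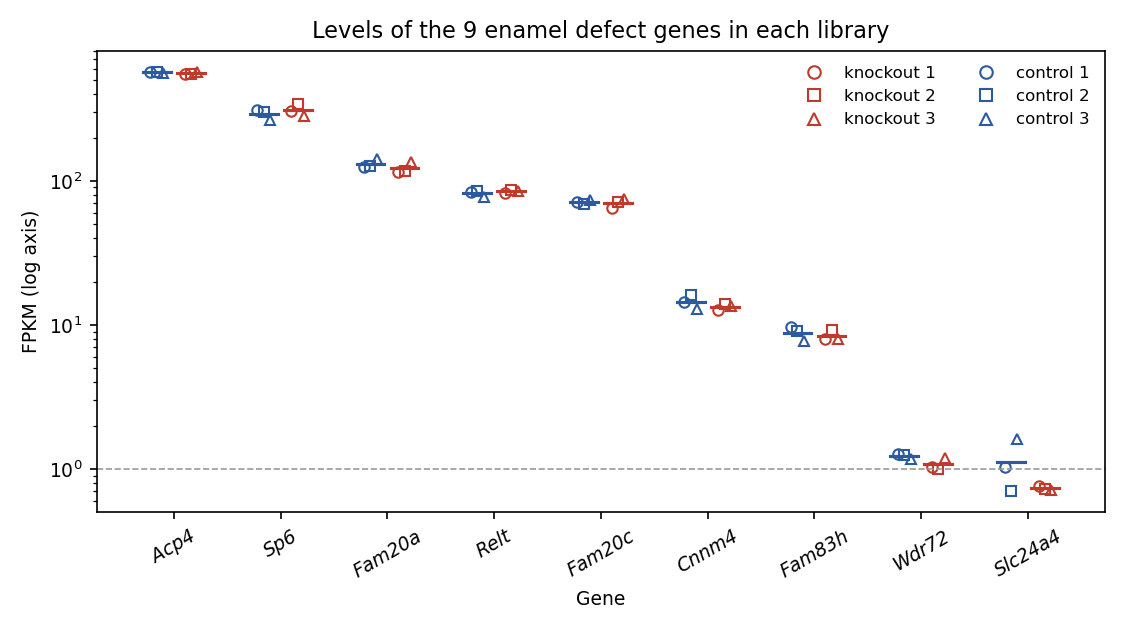
FPKM (log axis) of each of the 9 genes in each library, with controls in blue and knockouts in red, symbols for replicate numbers and horizontal bars for group means. The dashed line marks 1 FPKM, the filter used for testing. The groups overlap for every gene, and Slc24a4 in control 3, at 1.61 FPKM, is the point farthest from its group.

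None of the 9 genes passed the test for a difference between knockout and control. With limma on log2(FPKM + 1), 8 of the 9 passed the filter of 1 FPKM in at least 3 libraries and 0 of the 8 had an adjusted p under 0.05, where 0.00838% of the 11934 genes tested did, Wnt10a alone. At an unadjusted p under 0.05 there were 0 of 8 members, against 5.7% of all genes tested. Values of the groups did not overlap for 0 of the 9 members, against 10.1% of all genes tested. Log2 fold changes of the 8 lay between -0.11 and 0.08, with a median of -0.04 beside -0.005 over all genes tested, and 6 of the 8 were below 0, or 5 without knockout 1, without control 1 or without control 3. The lowest and highest bounds of their 95% intervals were -0.32 and 0.29, that is -19.7% and 22% on the FPKM + 1 scale. The half-widths of these intervals ran from 0.144 to 0.213 on the log2 scale. Slc24a4 was the member that did not pass the filter.

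**Figure D2:**
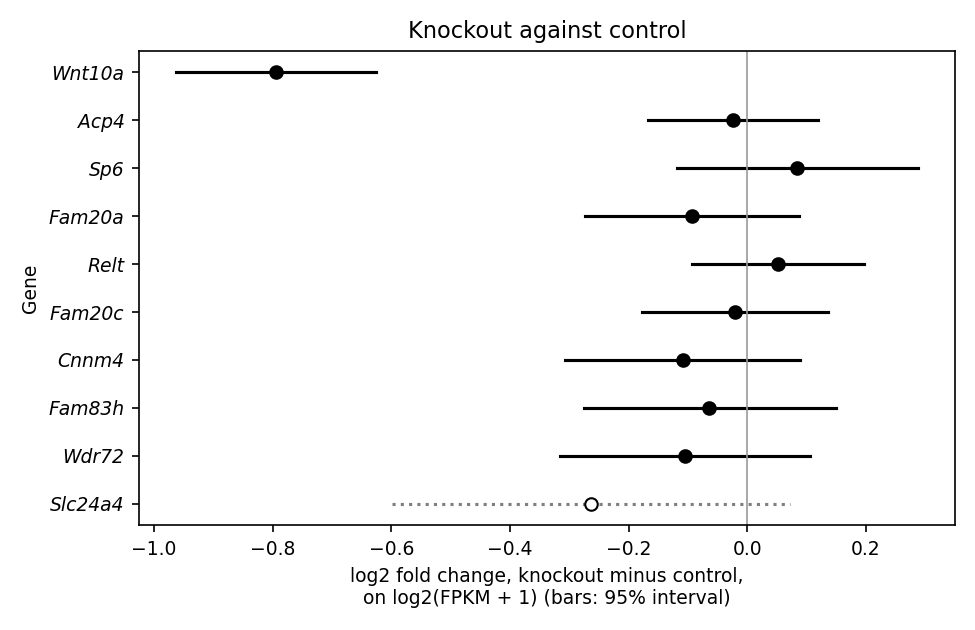
Log2 fold change of knockout minus control on log2(FPKM + 1), with 95% intervals from limma, for Wnt10a and the 9 members ordered by level. The intervals of all 9 members include 0. The open symbol and dotted line of Slc24a4 come from the fit without a filter on low values.

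Sp6 encodes a zinc finger transcription factor that mouse ameloblasts need to differentiate. It was at 307.50, 343.29 and 280.95 FPKM in the knockouts and at 312.78, 302.92 and 262.66 FPKM in the controls. The highest value fell in the knockout and the lowest in the control, but knockout 3 lay below controls 1 and 2. Means were 311 ± 31.3 and 293 ± 26.6 FPKM (SD, n = 3 each). The difference was 0.08 on the log2 scale with an SE of 0.092, and the adjusted p by limma was 0.922. The annotation places a transcript, Gm11532, on the opposite strand over 3329 of the 3841 exonic bases of Sp6. No strand setting for the counting is given in the labels or the file, so reads of the pair cannot be told apart.

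Sp6 and the keratins Krt14, Krt5 and Krt17 were lowest in the libraries numbered 3. In the other 4 libraries the order of Sp6 differed from that of each keratin. Krt14, the basal epithelial keratin whose promoter drives the Cre, was lowest in control 3 at 747.82 FPKM and next lowest in knockout 3 at 815.99 FPKM, and those were also the lowest libraries for Sp6. The ratio of Sp6 to Krt14 ran from 0.311 to 0.354 over the 6 libraries, a 1.14-fold span where Sp6 alone spanned 1.31-fold. That ratio was 0.334 ± 0.0201 in the knockout and 0.344 ± 0.0152 in the control. Krt14 was picked for this ratio after its values were seen. Of the 12 epithelial markers, Krt14 included, 8 were lowest of their group in both libraries numbered 3 and 2, Amelx and Ambn, were highest there. The sum of all 12, most of it Amelx, was therefore highest in knockout 3, at 247291.9 FPKM, and control 3, at 246991.9 FPKM. Without Amelx, Ambn, Enam and Krt14 the sum was lowest in control 3, at 1832.0 FPKM, and knockout 3, at 2039.3 FPKM, and lay between 2275.3 and 2427.6 FPKM in the other 4 libraries. The part of epithelial content in the level of Sp6 was not tested.

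Fam20c is the kinase of the secretory pathway that phosphorylates enamel, dentin and bone matrix proteins. Its levels were 64.88, 71.02 and 74.67 FPKM in the knockouts and 70.84, 68.96 and 73.63 FPKM in the controls. The controls lay inside the range of the knockouts. With means of 70.2 ± 4.95 and 71.1 ± 2.35 FPKM, the log2 difference was -0.02 with an SE of 0.071 (adjusted p by limma 0.976).

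Fam20a is a pseudokinase that binds Fam20c and raises its activity. It was at 115.40, 116.99 and 135.64 FPKM in the knockouts and at 125.23, 125.94 and 141.09 FPKM in the controls. Knockouts 1 and 2 were below all controls and knockout 3 was above controls 1 and 2. The log2 difference was -0.09 with an SE of 0.082 (adjusted p by limma 0.909). Without knockout 3, the highest of the knockouts, it was -0.17, with an unadjusted p of 0.0349 and an adjusted p of 0.308 by limma.

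Transcripts of the activator outnumbered those of the kinase in every library. The ratio of Fam20a to Fam20c in FPKM was 1.78, 1.65 and 1.82 in the knockouts and 1.77, 1.83 and 1.92 in the controls. The groups overlapped, at 1.75 ± 0.0888 and 1.84 ± 0.0748. Both genes were highest in the libraries numbered 3 of their group. So were 8 of the 11 odontoblast and dentin markers, among them Dspp, a dentin matrix protein, at 853.08 FPKM in knockout 3 and 837.92 FPKM in control 3. Dmp1, another matrix protein of dentin and bone, went the other way and was lowest of each group there, at 18.25 and 21.62 FPKM. In control 3, Alpl, alkaline phosphatase, at 277.70 FPKM, and Sp7, at 39.95 FPKM, were also the lowest of the controls. All 11 markers summed to 15168.6 and 15484.3 FPKM in the libraries numbered 3 and to between 10804.3 and 13094.1 FPKM in the other 4, and without Col1a1, the most abundant, to 8528.9 and 8538.7 FPKM against 6761.6 to 7345.2 FPKM. The part of dentin-forming cells in the level of the pair was not tested.

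Acp4, a histidine acid phosphatase first described in testis, was the most abundant member and the steadiest. It stood at 550.37, 553.76 and 566.90 FPKM in the knockouts and at 572.48, 569.80 and 557.33 FPKM in the controls. Knockout 3 exceeded control 3, so the groups overlapped. Its coefficient of variation was 1.57% in the knockout and 1.43% in the control, against medians of 8.35% and 7.36% over all genes tested. The log2 difference was -0.02, with a 95% interval from -0.17 to 0.12 and an adjusted p of 0.969 by limma. By mean level Acp4 ranked 85 in the table. A gene on the opposite strand, 2410002F23Rik, shares 172 of the 1749 exonic bases of Acp4 and was itself at 110.07 to 129.72 FPKM, so a part of the reads over those bases cannot be assigned.

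Fam83h, which recruits casein kinase 1 to keratin filaments, was at 7.99, 9.25 and 7.96 FPKM in the knockouts and at 9.71, 9.02 and 7.78 FPKM in the controls. The lowest and the highest value both came from controls. The log2 difference was -0.06 with an SE of 0.097 (adjusted p by limma 0.944). Like Sp6, Fam83h was lowest in control 3.

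Relt, a member of the tumour necrosis factor receptor superfamily, was at 82.41, 87.12 and 85.56 FPKM in the knockouts and at 83.69, 84.94 and 77.45 FPKM in the controls. Control 3 was the lowest library, and the other 5 lay close together with the groups mixed. The log2 difference was 0.05 with an SE of 0.066 (adjusted p by limma 0.929), and without control 3 it was 0.01.

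Cnnm4, a membrane protein linked to magnesium transport, was at 12.67, 13.92 and 13.44 FPKM in the knockouts and at 14.50, 16.21 and 12.84 FPKM in the controls. Controls 1 and 2 were above all knockouts and control 3 was below knockouts 2 and 3. The log2 difference of -0.11, with an SE of 0.090, was the lowest of the 8 (adjusted p by limma 0.897). It was -0.03 without control 2 and -0.19 without control 3, and without both libraries numbered 3 it was -0.19 with an unadjusted p of 0.0435 and an adjusted p of 0.315 by limma.

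Wdr72, needed in ameloblasts for uptake of matrix proteins during maturation, was close to the filter. It was at 1.04, 1.0 and 1.19 FPKM in the knockouts and at 1.28, 1.25 and 1.17 FPKM in the controls, or about 93 to 120 reads a library. Knockout 3 lay just above control 3, and the other knockouts lay below all controls. The change of the means was -12.7%. On log2(FPKM + 1), which compresses genes this low, the difference was -0.11 with an SE of 0.096 (adjusted p by limma 0.909), and with a pseudocount of 0.1 it was -0.18, with a 95% interval from -0.55 to 0.18.

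Slc24a4, a potassium-dependent exchanger of sodium for calcium that ameloblasts use in maturation, was the lowest member. It was at 0.76, 0.73 and 0.71 FPKM in the knockouts and at 1.03, 0.70 and 1.61 FPKM in the controls. The knockouts were tightly grouped, control 2 was below all of them and control 3 was far above. In estimated reads the knockouts held 27 to 29 and controls 1, 2 and 3 held 38, 26 and 61, with exact 95% Poisson intervals of 17.8 to 39.3 for knockout 2 and 46.7 to 78.4 for control 3, which cover counting error only. The knockout mean of 0.733 ± 0.0252 FPKM differed by -34.1% from the control mean of 1.11 ± 0.461 FPKM. Without control 3 the control mean was 0.865 FPKM. Fitted without a filter, Slc24a4 had a log2 difference of -0.26, with a 95% interval from -0.60 to 0.07 and an adjusted p of 0.897 by limma, and without control 3 the difference of means on that scale was -0.10.

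Control 3 was also the highest library for genes of the maturation stage. Amtn, an adhesive protein of maturation ameloblasts, was at 113.54 FPKM there and between 42.92 and 61.37 FPKM elsewhere. Klk4, the protease that clears the matrix, was at 21.22 FPKM there and between 11.57 and 15.73 FPKM elsewhere. The ratio of Slc24a4 to Amtn spanned 1.46-fold over the 6 libraries, where Slc24a4 alone spanned 2.3-fold and Amtn alone 2.65-fold. The ratio of Slc24a4 to Klk4 spanned 1.76-fold, little less than Klk4 alone at 1.83-fold, and its ratio to Wdr72 ran from 0.56 to 1.38. Wdr72 did not share the pattern, since control 3 was its lowest control. Amtn and Klk4 were picked here after their values were seen, and the part of maturation stage in the level of Slc24a4 was not tested.

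**Figure D3:**
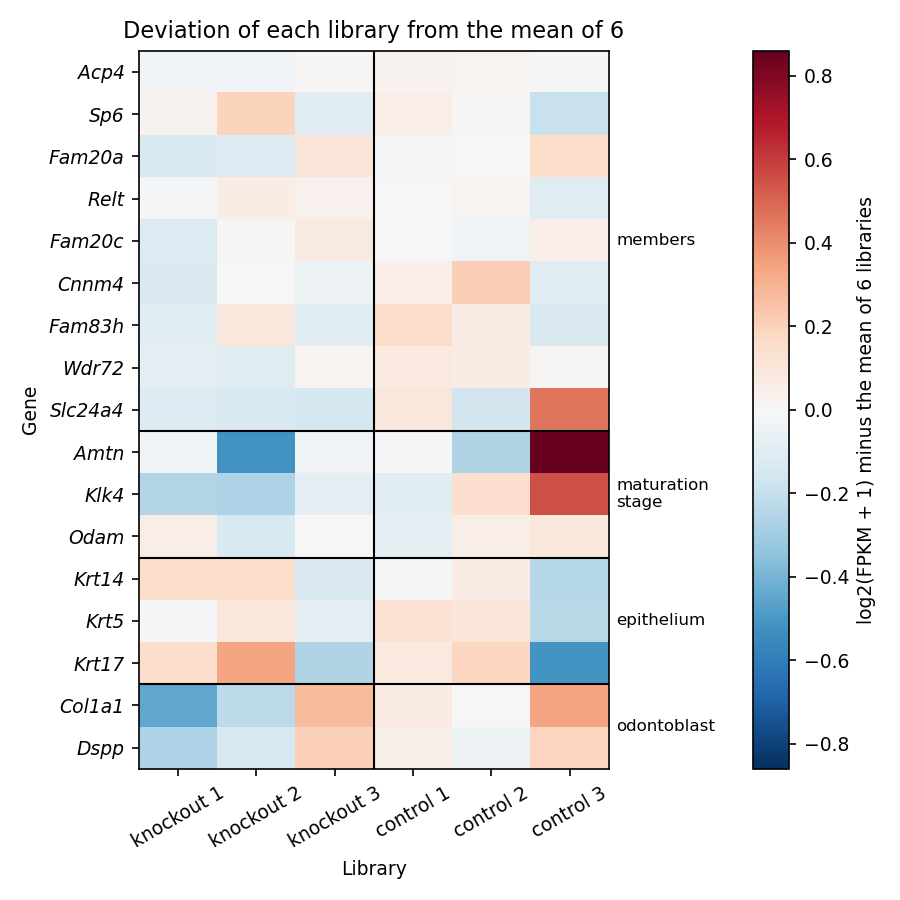
Each cell is log2(FPKM + 1) of a gene in a library minus the mean of the 6 libraries, for the 9 members and for maturation-stage, epithelial and odontoblast genes picked after their values were seen. Control 3 is high for Slc24a4 (0.46), Amtn (0.86) and Klk4 (0.55) and low for Sp6 (-0.19), Krt14 (-0.25) and Krt17 (-0.51), while Acp4 stays between -0.03 and 0.03.

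Beside their nearest relatives the members fell into different places, in FPKM and so per transcript length. Acp4 was 7.04 to 8.01 times as high as Acpp, the prostatic acid phosphatase, and 48.6 to 53.6 times as high as lysosomal Acp2. Sp6 was 6.57 to 8.65 times as high as Sp7, the osteoblast and odontoblast factor also called osterix, which was the highest of 8 other SP genes. Fam20a exceeded Fam20b, a kinase of proteoglycan synthesis, by 5.09 to 6.39 times and Fam20c did so by 2.91 to 3.52 times. Relt exceeded Rell1 by 6.2 to 7.85 times, and Cnnm4 exceeded Cnnm3 by 2.37 to 2.95 times.

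The remaining members were not the highest of their families. Fam83g, at a mean of 21.3 FPKM, was above Fam83h in every library, and Fam83d, at 8.06 FPKM, overlapped with it. Wdr7 stood at 2.82 FPKM, above Wdr72 in every library. Slc24a3, an exchanger of the same family, stood at 33.9 FPKM, and Slc24a4 was at 0.0198 to 0.0461 of it.

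**Figure D4:**
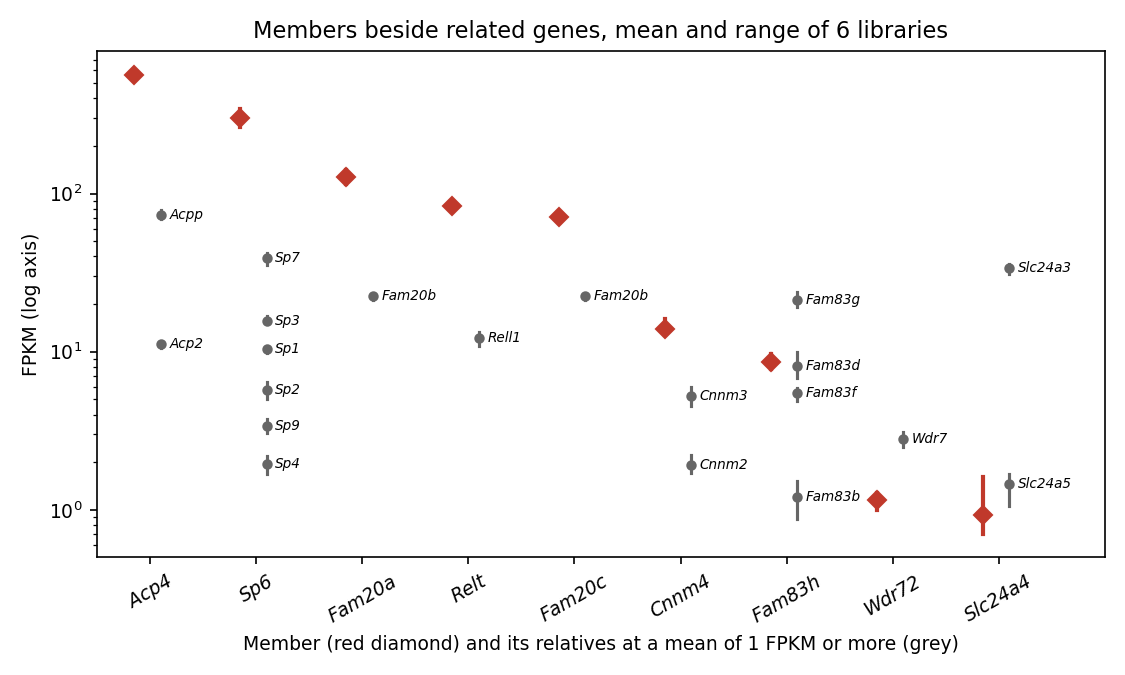
FPKM (log axis) of each member (red diamond) and of the related genes with a mean of 1 FPKM or more (grey circles), as the mean of 6 libraries with bars from the lowest to the highest library. Acp4, Sp6, Fam20a, Relt, Fam20c and Cnnm4 lie above the relatives drawn, and Wdr72 and Slc24a4 lie below Wdr7 and Slc24a3.

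Other genes with inherited enamel defects did not pass the test either. Of 24 found, 22 were tested and 0 rose or fell, with 8 above and 14 below 0 and a median log2 fold change of -0.04. By role, 0 of 7 enamel matrix and protease genes passed (median -0.04), with 3 above 0 and 4 below. The lowest log2 differences were those of Klk4, -0.399, and Amtn, -0.39 (adjusted p by limma 0.816 and 0.891). Amelx, amelogenin, was at 188227 ± 18659 and 186206 ± 15843 FPKM for knockout and control, Ambn, ameloblastin, at 38372 ± 2324 and 37884 ± 2816 FPKM, and Enam, enamelin, at 3279 ± 124 and 3382 ± 78.4 FPKM. Of 5 adhesion genes 0 passed (median -0.003), among them Lamb3, a laminin chain, at 212 ± 18 and 218 ± 5.55 FPKM and Col17a1, a collagen of hemidesmosomes, at 101 ± 7.7 and 113 ± 7.89 FPKM. Of 10 tested genes with roles in ions, protons and other functions 0 passed (median -0.06). Slc13a5, a citrate transporter, was at 124 ± 8.46 and 130 ± 3.69 FPKM, and Dlx3, a homeobox factor, at 114 ± 2.13 and 121 ± 7.15 FPKM.

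Genes related to the members by family, role or inherited defect gave the same count. Over 12 lists of such genes, the other enamel defect genes included, 91 were tested, 0 passed, and the groups did not overlap for 13 of them, against 10.1% of all genes tested. The lowest adjusted p was 0.515, for Acp5, an acid phosphatase of osteoclasts that is not a close relative of Acp4. It was at 14.46, 12.94 and 17.39 FPKM in the knockouts and at 21.46, 22.48 and 18.26 FPKM in the controls, and the osteoclast marker list holds it. The other 7 markers of that list summed to 42.9 to 57.4 FPKM in the knockouts and 59.5 to 62.2 FPKM in the controls. The part of osteoclast content in the level of Acp5 was not tested.

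Among calcium exchangers and pumps, 8 were tested, 0 passed and the median was -0.12, with 7 below 0, or 5 once the trend of each library with transcript length was removed, 5 without knockout 1 and 6 without control 1. Atp2b1, a calcium pump of the plasma membrane, was at 53.1 ± 2.18 and 59.2 ± 2.94 FPKM, and Atp2a2, the pump of the endoplasmic reticulum, at 106 ± 6.8 and 117 ± 3.57 FPKM. Slc24a3 was at 32.4 ± 1.17 and 35.4 ± 0.47 FPKM (log2 difference -0.12 with an SE of 0.065, adjusted p by limma 0.888). These 3 are the most abundant of the 8, and also the 3 of the 8 whose groups did not overlap, where 10.1% of all genes tested do not overlap. Of 13 tested maturation-stage genes 0 passed (median -0.03), with Odam, a protein of the ameloblast surface, at 141 ± 9.28 and 146 ± 9.22 FPKM.

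Of 9 tested genes in a list of FAM83 genes, casein kinase 1 genes and the keratins Krt5 and Krt14, 0 passed (median 0.005). Csnk1a1, casein kinase 1 alpha, was at 75.5 ± 1.08 and 80.3 ± 1.91 FPKM. Of 10 tested CNNM and magnesium genes 0 passed (median -0.06), with Trpm7, a magnesium-permeable channel, at 76.1 ± 2.82 and 79.8 ± 4.19 FPKM. Of 6 tested SP genes other than Sp6, 0 passed (median -0.08), with Sp7 at 37.6 ± 2.24 and 41.0 ± 1.01 FPKM. All 6 SP genes were below 0, or 4 once the trend with length was removed. That count was 5 without knockout 1, without control 1 or without control 3. Of 12 genes in a list of Wdr72 paralogs and of endocytosis and lysosome genes, 0 passed (median 0.009). Lamp1, a lysosomal membrane protein, was at 190 ± 5.72 and 179 ± 4.42 FPKM. Of 5 tested kinases related to Fam20c (median -0.002), 6 acid phosphatases (median -0.03) and 3 Relt relatives and partners (median -0.004), 0 passed.

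The authors' deposited table gives smaller p-values for the same members. For 5 of the 9, the authors' deposited table lists a q-value under 0.05, 2 higher and 3 lower, which holds for 24.4% of the 16662 rows with a q-value. For Sp6 the authors' deposited table lists a log2 ratio of 0.0861 with a q-value of 2.11e-21, and for Fam20a one of -0.0919 with a q-value of 3.09e-08. The authors' deposited table lists q-values of 0.00298 for Cnnm4, 0.0111 for Slc24a4 and 0.0131 for Relt. Abundant rows were called more often: in the authors' deposited table the share was 72.5% of 1022 genes at a mean of 50 FPKM or more, and 3 of the 5 members above that level. Each of the 5 members called had overlapping groups here. Sp6 had at least 16236 estimated reads a library, for which counting alone gives a coefficient of variation of 0.785%, and its libraries varied by 10.1% in the knockout and 9.07% in the control.

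The members lie on 7 chromosomes of mm10 in GENCODE M21. Sp6 (chromosome 11, 97013394 to 97024734, plus strand) and Fam20a (109669749 to 109722279, minus strand) share chromosome 11. Acp4 (44252148 to 44257378) and Relt (100845847 to 100863446), both on the minus strand, share chromosome 7. Cnnm4 lies on chromosome 1 (36471620 to 36508764, plus), the chromosome of Wnt10a (74791516 to 74804179, plus), and Fam20c on chromosome 5 (138754514 to 138810077, plus). Wdr72 lies on chromosome 9 (74110356 to 74283308, plus), Slc24a4 on chromosome 12 (102128733 to 102267091, plus) and Fam83h on chromosome 15 (76001093 to 76014336, minus). All are protein-coding, and FPKM refers to whole transcripts, from 1278 bases for Acp4 to 5218 bases for Wdr72.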

How the data were processed

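Per the labels, mRNA of 6 molar samples was sequenced on BGISEQ-500, and per the submitters' processing notes reads were aligned with Bowtie2 to mm10. The labels and the file name no versions, FPKM tool or annotation release. The authors' deposited table holds FPKM per library and, per the file headers, the length of the longest transcript and the authors' log2 ratio, p-value and q-value, with no test named. The symbols of 25 rows, written as dates, were restored from gene numbers. FPKM divides by the library total, of which Amelx took 30.6% to 35.9% as summed FPKM.

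Values were tested with limma 3.58.1 (R 4.3.3) on log2(FPKM + 1), trended variance, group as the only term, two-sided, for the 11934 genes that reached 1 FPKM in 3 libraries or more, with Benjamini-Hochberg adjustment over all of them and a threshold of 0.05. The steps were tested on simulated data. Reads were estimated from low values with 30 bases taken off the length, where 82.9% to 86.1% of values lay within 0.15 of a whole read. Calculations used Python 3.11.15 with pandas 2.3.3, numpy 2.4.6 and scipy 1.17.1, and plots matplotlib 3.10.9. The members and the 21 gene lists, of whose 192 entries 190 matched, were chosen with earlier results of these data known. The text names all members, Wnt10a, and of each list genes past the threshold or else up to 3 of the most abundant. The values of some list genes are not reported here. Others, and the comparison with related genes, were chosen after values were seen. Alternatives were another pseudocount, other filters, other scalings, a replicate block, single libraries left out and, added after seeing the data, removal of the trend with transcript length and omission of both libraries numbered 3.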

Additional observations from a re-analysis of the deposited data

How the results depend on the processing

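Under all 14 alternatives 0 members passed the threshold, among those that the setting tested (at 5 FPKM, Wdr72 was not tested). Of 111 values of tested members, 108 kept their direction and the lowest adjusted p was 0.308. The exceptions came from single libraries left out. With a library left out Fam20c ran from -0.066 to 0.034, above 0 without knockout 1 or without control 3 (0.004), and Fam83h ran from -0.143 to 0.00027, above 0 without control 1. Scaled to the total without Amelx, Fam20c was -0.069 and Acp4 -0.073, where the median over all genes tested was -0.047. With the trend of transcript length removed Acp4 was -0.09. Slc24a4 ran from -0.409 without control 2 to -0.1 without control 3, was -0.09 without both libraries numbered 3, and was -0.473 with a pseudocount of 0.1.

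Genes past the threshold over the whole table numbered 1 in the fit reported, 0 without a filter on low values (Wnt10a adjusted p = 0.106), 3 with a filter at 5 FPKM, 8 with the replicate block, between 1 and 6 with a library left out (6 without knockout 3, 3 without control 2) and 11 without both libraries numbered 3. The cause was not tested. The groups share replicate numbers, but the labels state no shared animal, litter or day, so the numbers were not taken as pairs. Deviations of same-numbered libraries from their group means correlated at -0.0622, 0.17 and 0.388. Not every library correlated best with its own number. Deviations centred within each group constrain these correlations, which therefore cannot decide whether the numbers are pairs. Depth limits Slc24a4 most, at 26 to 61 estimated reads a library.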
